A study of Mus with 8 samples.

Results

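The genes described here are 8 known targets of STAT transcription factors in myeloid cells. Socs1, Socs2, Socs3 and Cish encode feedback inhibitors of cytokine signalling, and Pim1, Bcl2l1, Myc and Osm encode a kinase, a survival protein, a growth regulator and a cytokine. They were chosen as a fixed list of 8 Ensembl gene IDs, which gives their symbols, out of 17640 IDs in the count table. All 8 passed the filter on low counts, as did 14785 IDs in all. RNA was measured in mouse monocytes from bone marrow (strain C57BL/6), on day 3 in stiff hydrogels, in medium with 100 ng/mL GM-CSF, 200 ng/mL IL4 and 100 ng/mL PGE2. Control cells carried Vav-iCre alone, and mutant cells carried the knock-in allele Jak2 V617F with Vav-iCre. Both genotypes thus carried the Cre recombinase. The Vav promoter is active across blood cells, so the mutation is not limited to monocytes in these mice. Each genotype was grown in a viscous and in an elastic gel, with 2 libraries in each of the 4 groups. The study asks how gel elasticity and the Jak2 mutation change the transcripts of these cells.

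GM-CSF signals through JAK2, which phosphorylates STAT5, and IL4 signals through other JAK kinases to STAT6. Phosphorylated STATs enter the nucleus and switch on genes that include their own inhibitors: SOCS1, SOCS2, SOCS3 and CIS (from Cish) bind activated receptors or kinases and damp the signal. The V617F change makes JAK2 active with little or no cytokine, and STAT5 target transcripts are a common readout of that activity.

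Each title ends in a number that occurs once in each gel. Control libraries carry 1 of 2 numbers, written W1 and W2 below, and Jak2 V617F libraries carry J1 or J2. What the number stands for (mouse, culture or date) is not stated in the labels. The p-values therefore measure only how far these libraries spread, and that spread may be technical. Libraries held 30632355 to 38408851 counts. The first principal component of all tested IDs (41.5% of the variance) set both W1 libraries (scores 69.4 and 78.2) apart from the other 6 (−37.1 to −10.9). Only the 8 IDs carry symbols here, so the labelled cell type was not checked against its markers, and the level of Jak2 was not analysed here. In bulk RNA, fewer cells of a type and less RNA per cell cannot be told apart.

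In build GRCm38, RefSeq places Socs1 (ENSMUSG00000038037) at chromosome 16, 10783808 to 10785536, and Socs2 (ENSMUSG00000020027) at chromosome 10, 95383903 to 95417321. Socs3 (ENSMUSG00000053113) lies at chromosome 11, 117966079 to 117970336, and Cish (ENSMUSG00000032578) at chromosome 9, 107296659 to 107302784. Pim1 (ENSMUSG00000024014) lies at chromosome 17, 29490785 to 29496111, and Bcl2l1 (ENSMUSG00000007659) at chromosome 2, 152758732 to 152833803. Myc (ENSMUSG00000022346) lies at chromosome 15, 61985341 to 61990361, and Osm (ENSMUSG00000058755) at chromosome 11, 4236785 to 4241026. The span of Bcl2l1 overlaps Cox4i2 and a transcribed pseudogene, and the spans of Socs2 and Pim1 each overlap a lncRNA gene. Whether these genes share exonic sequence was not tested, and the sources used here do not give whether strand was used in counting, so the counts of these 3 genes are less certain. Levels are given as CPM, a count scaled to a fixed library total after TMM scaling. They are not corrected for transcript length and are not compared between genes.

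**Figure D1:**
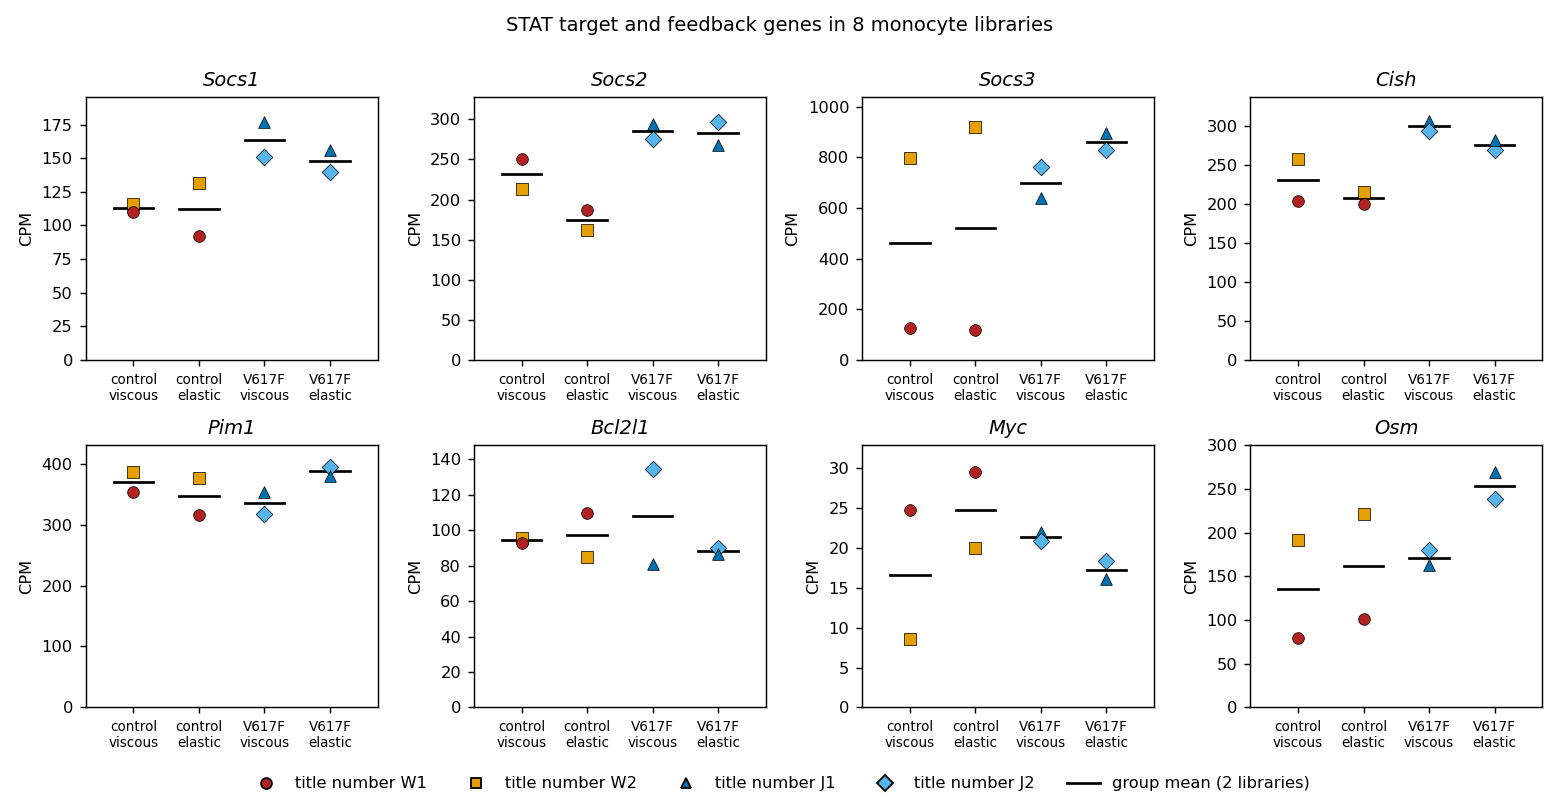
Level of each gene in CPM (y axis, from 0) in the 4 groups (x axis). Each point is 1 library, its shape and colour give the title number, and the black line is the mean of the 2 libraries. Socs1, Socs2 and Cish were higher in all 4 Jak2 V617F libraries than in all 4 control libraries, and Socs3 was at 118.8 and 126.9 CPM in the W1 libraries and above 637 CPM in the other 6.

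The genotypes were compared first, to see whether transcripts of STAT targets differ in Jak2 V617F cells. Of the inhibitors, Socs1, Socs2 and Cish stood 1.33-fold to 1.40-fold higher in Jak2 V617F cells, with every mutant library above every control library. Socs3 and Osm were low in 1 pair of control libraries, and their genotype difference turned on that pair. Pim1, Bcl2l1 and Myc had no common direction across the gels. No gene of the list passed the edgeR test with adjustment over all IDs.

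Socs1 encodes a SOCS protein that binds JAK kinases and blocks their activity. In control cells it stood at 116.2 CPM (W2) and 110.1 CPM (W1) in viscous gel and at 131.4 and 92.4 CPM in elastic gel. In Jak2 V617F cells it stood at 176.7 CPM (J1) and 150.8 CPM (J2) in viscous gel and at 156.2 and 139.5 CPM in elastic gel. The genotypes did not overlap, and the closest libraries were J2 and W2 in elastic gel. On counts summed over both gels per number, 2 sums against 2, Socs1 was 1.39-fold higher in Jak2 V617F cells (log2 fold change 0.48, SE 0.16, 95% interval 1.03-fold to 1.88-fold, edgeR adjusted p = 0.792).

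Socs2 encodes a SOCS protein best known for restraining growth hormone signalling through STAT5, and its gene is itself a STAT5 target. Control cells held 213.2 CPM (W2) and 250.2 CPM (W1) in viscous gel and 162.1 and 187.5 CPM in elastic gel. Jak2 V617F cells held 294.7 CPM (J1) and 276.0 CPM (J2) in viscous gel and 268.1 and 296.7 CPM in elastic gel. All 4 mutant libraries lay above 268 CPM and all 4 control libraries at or below 250.2 CPM, and the distance was wider in elastic gel. The summed counts were 1.40-fold higher (log2 fold change 0.48, SE 0.14, 95% interval 1.07-fold to 1.83-fold, edgeR adjusted p = 0.792).

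Cish encodes CIS, a STAT5-induced inhibitor that binds cytokine receptors. It stood at 257.3 CPM (W2) and 203.5 CPM (W1) in control cells in viscous gel and at 214.8 and 199.8 CPM in elastic gel. In Jak2 V617F cells it stood at 306.5 CPM (J1) and 293.3 CPM (J2) in viscous gel and at 282.3 and 269.7 CPM in elastic gel. The lowest mutant library, 269.7 CPM, lay above the highest control library, 257.3 CPM. The summed counts were 1.33-fold higher (log2 fold change 0.41, SE 0.15, 95% interval 1.01-fold to 1.75-fold, edgeR adjusted p = 0.792).

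Of the 8 genes, these 3 had all 4 Jak2 V617F libraries above all 4 control libraries, against 3.5% of all IDs tested, and 0 had all 4 below, against 3.39%. It follows that these 3 also had all 4 above both W2 libraries, as 11.7% of all IDs had. That count is thus no further support. Of the 8 genes, 0 had all 4 below both W2 libraries, against 12.2%. In the summed comparison edgeR called 0 of the 8 at an adjusted p under 0.05 (0% of all 15239 IDs), as did limma-voom (0%) and DESeq2 (0.696%). At an unadjusted edgeR p under 0.05, the same 3 genes were higher, where 2.47% of all IDs were. This test used the same libraries as the count without overlap, so it is no separate support. All 4 SOCS family genes had a log2 fold change above 0, with a median of 0.48. That of Socs3 was 0.66 (SE 0.91), and −0.15 without W1. Of the other 4 genes 3 lay above 0, with a median of 0.03 for the 4. Among these 3 were Pim1 at 0.01 (SE 0.15) and Bcl2l1 at 0.06 (SE 0.19), both within 1 SE of 0. Over all IDs, 49.2% were above 0 and the median was −0.0049.

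With either control number left out the 3 genes could only keep their direction, since every mutant library lay above every control library. The size of the difference could still change. Without W1, the summed log2 fold change in edgeR was 0.34 (SE 0.13) for Socs1, 0.60 (SE 0.11) for Socs2 and 0.29 (SE 0.11) for Cish. Without W2 it was 0.64 (SE 0.13), 0.38 (SE 0.11) and 0.54 (SE 0.12). Each of these fits has 1 control number, so it takes no spread between control numbers. Passing or missing the threshold in such a fit, by edgeR or DESeq2, is thus not read as evidence for these 3 genes. Averaged over the 8 libraries, which treats both libraries of a number as independent, DESeq2 called Socs2 (adjusted p = 0.00443) and Cish (adjusted p = 0.0420), and 2.27% of all IDs. In that average Socs1 had an adjusted p of 0.0953 by DESeq2, and edgeR gave the 3 genes adjusted p-values of 0.352 to 0.392.

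Within viscous gel the log2 fold change was 0.53 (SE 0.19) for Socs1, 0.30 (SE 0.15) for Socs2 and 0.38 (SE 0.16) for Cish. Within elastic gel it was 0.40 (SE 0.19), 0.69 (SE 0.15) and 0.41 (SE 0.16). Single control libraries moved some of these: Socs1 in elastic gel was 0.17 (SE 0.17) without the W1 elastic library and 0.68 without the W2 elastic library. In viscous gel, Cish was 0.22 (SE 0.16) without the W1 library, and Socs2 was 0.20 (SE 0.18) without the W2 library. In viscous gel both mutant libraries lay above both control libraries for these 3 of the 8 genes (against 18.6% of all IDs) and below them for Pim1 (1 of 8, against 19%). In elastic gel both lay above for the 3 genes, Pim1 and Osm (5 of 8, against 17.2%) and below for Myc (1 of 8, against 18.9%). For the 3 genes this follows in each gel from their lack of overlap over both gels and is no further support. edgeR called 0 of the 8 genes in viscous and 0 in elastic gel (0% of 14785 IDs in each). In viscous gel Socs1 and Cish were higher at an unadjusted p under 0.05, against 3.61% of all IDs. In elastic gel Socs2 and Cish were, against 1.91%. These tests used the same libraries as the counts without overlap and are no separate support. Socs2 stood at rank 31 of 14785 IDs by p in elastic gel, and DESeq2 called it there (adjusted p = 0.0196), with 0.298% of all IDs. DESeq2 called 0 of the 8 in viscous gel (0.413% of all IDs), and limma-voom called 0 in each gel (0%). Leaving out W1 or W2 left 1 control library in each gel, so those fits take no spread between control libraries. Socs2 in elastic gel was 0.80 without the W1 elastic library. Myc in viscous gel was 0.36 (SE 0.46) in edgeR with all libraries. It was 1.32 in DESeq2 without W1, and −0.20 in edgeR without the W2 viscous library. Some of the 8 genes passed the threshold in fits without W1 or without W2, by edgeR or DESeq2. With 1 control library in each gel, these calls are not read as evidence.

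**Figure D2:**
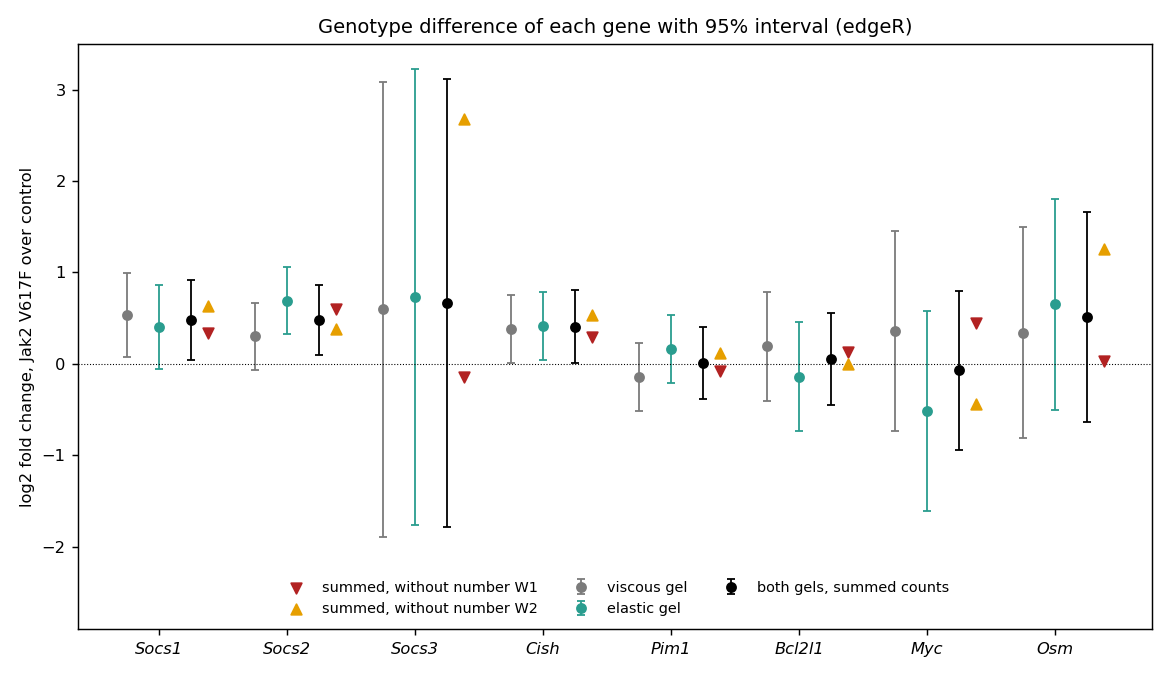
Log2 fold change of Jak2 V617F over control (y axis) for each gene (x axis) in viscous gel, in elastic gel and on counts summed over both gels. Points are edgeR estimates with 95% intervals, and triangles are the summed estimate with control number W1 or W2 left out. For Socs3 the triangles lie at −0.15 and 2.68. For Socs1, Socs2 and Cish both lie above 0, which their lack of overlap between the genotypes fixed in advance.

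Socs3 encodes the inhibitor of receptors that signal through STAT3, such as those of the IL-6 family and G-CSF. In the W2 control libraries it stood at 797.5 CPM in viscous and 920.4 CPM in elastic gel, and in the W1 control libraries at 126.9 and 118.8 CPM. In Jak2 V617F cells it stood at 637.5 CPM (J1) and 760.0 CPM (J2) in viscous gel and at 894.0 and 827.8 CPM in elastic gel. The mutant libraries thus lay between the control numbers in each gel, close to W2 and far above W1. The summed log2 fold change was 0.66 (SE 0.91, 95% interval −1.79 to 3.11, edgeR adjusted p = 0.877), and limma-voom gave 1.25. It was −0.15 (SE 0.13) without W1 and 2.68 (SE 0.14, adjusted p = 0.00168) without W2.

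Osm encodes oncostatin M, a cytokine of the IL-6 family whose gene is a STAT5 target in blood cells. It stood at 191.7 CPM (W2) and 79.0 CPM (W1) in control cells in viscous gel and at 221.1 and 101.4 CPM in elastic gel. Jak2 V617F cells held 162.9 CPM (J1) and 179.9 CPM (J2) in viscous gel and 268.8 and 238.6 CPM in elastic gel. In viscous gel the mutant libraries lay between the control numbers, and in elastic gel both lay above them. The summed log2 fold change was 0.51 (SE 0.43, 95% interval −0.63 to 1.66, edgeR adjusted p = 0.821). It was 0.03 (SE 0.11) without W1 and 1.26 (SE 0.11, adjusted p = 0.00394) without W2.

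Pim1 encodes a serine/threonine kinase that promotes survival and growth. Control cells held 386.9 CPM (W2) and 353.5 CPM (W1) in viscous gel and 376.7 and 315.6 CPM in elastic gel. Jak2 V617F cells held 352.8 CPM (J1) and 317.0 CPM (J2) in viscous gel and 379.9 and 395.2 CPM in elastic gel. The mutant libraries lay below the control libraries in viscous gel and above them in elastic gel, by small margins. The closest libraries differed by less than counting error in each gel: the exact Poisson 95% intervals were 347.0 to 358.7 CPM (J1) and 347.5 to 359.7 CPM (W1) in viscous gel, and 373.4 to 386.4 CPM (J1) and 370.0 to 383.5 CPM (W2) in elastic gel. It was the 1 gene of 8 with such a reversal, against 2.25% of all IDs. Pim1 had the narrowest range of the 8, with 1.25-fold between its lowest and highest library, and 8.69% of all IDs had a smaller range. The summed log2 fold change was 0.01 (SE 0.15, 95% interval −0.39 to 0.41, edgeR adjusted p = 0.987).

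Bcl2l1 encodes Bcl-xL, which protects cells from apoptosis. In control cells it stood at 95.5 CPM (W2) and 92.9 CPM (W1) in viscous gel and at 84.8 and 109.7 CPM in elastic gel. In Jak2 V617F cells it stood at 81.0 CPM (J1) and 134.6 CPM (J2) in viscous gel and at 86.7 and 90.0 CPM in elastic gel. The J2 library in viscous gel was the highest, and the other 7 lay between 81.0 and 109.7 CPM. The summed log2 fold change was 0.06 (SE 0.19, 95% interval −0.45 to 0.56, edgeR adjusted p = 0.950), and without J2 it was −0.17 (SE 0.18).

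Myc encodes a transcription factor that drives growth and division. It had 276 to 913 counts a library, the fewest of the 8 genes. Control cells held 8.59 CPM (W2) and 24.7 CPM (W1) in viscous gel and 20.0 and 29.5 CPM in elastic gel. Jak2 V617F cells held 22.0 CPM (J1) and 20.8 CPM (J2) in viscous gel and 16.2 and 18.4 CPM in elastic gel. The W2 library in viscous gel stood apart at the low end: the exact Poisson 95% interval of its level, which covers counting error only, was 7.60 to 9.66 CPM. The summed log2 fold change was −0.07 (SE 0.32, 95% interval −0.94 to 0.80, edgeR adjusted p = 0.964). It was 0.45 (SE 0.11, adjusted p = 0.288) without W1 and −0.44 (SE 0.10, adjusted p = 0.0437) without W2.

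The libraries of control number W1 lay at 1 end for most of the list, by a wide margin only for Socs3 and Osm. Both lay below all other 6 libraries for Socs1, Socs3, Cish and Osm (4 of 8 genes, against 14.8% of all IDs) and above them for Myc (1 of 8, against 16.1%). Socs3 was 6.29-fold lower in W1 than in W2 in viscous gel and 7.75-fold lower in elastic gel, and 0.426% of all IDs were at least as low in both gels. Osm was 2.43-fold and 2.18-fold lower, and 2.60% of all IDs were at least as low in both. Thus 2 of the 8 genes were at least 2-fold below W2 in both gels, against 3.37% of all IDs. In the other direction 0 of the 8 were at least 2-fold above in both, against 5.48%, though Myc was 2.88-fold higher in viscous and 1.47-fold higher in elastic gel. The Jak2 V617F numbers lay closer together: the ratio of J1 to J2 was 0.60 for Bcl2l1 in viscous gel and 0.84 to 1.17 for the other genes there, and 0.88 to 1.13 for all 8 in elastic gel. The W1 libraries also stood apart on the first principal component, and the part of that wider difference in these genes was not tested.

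**Figure D3:**
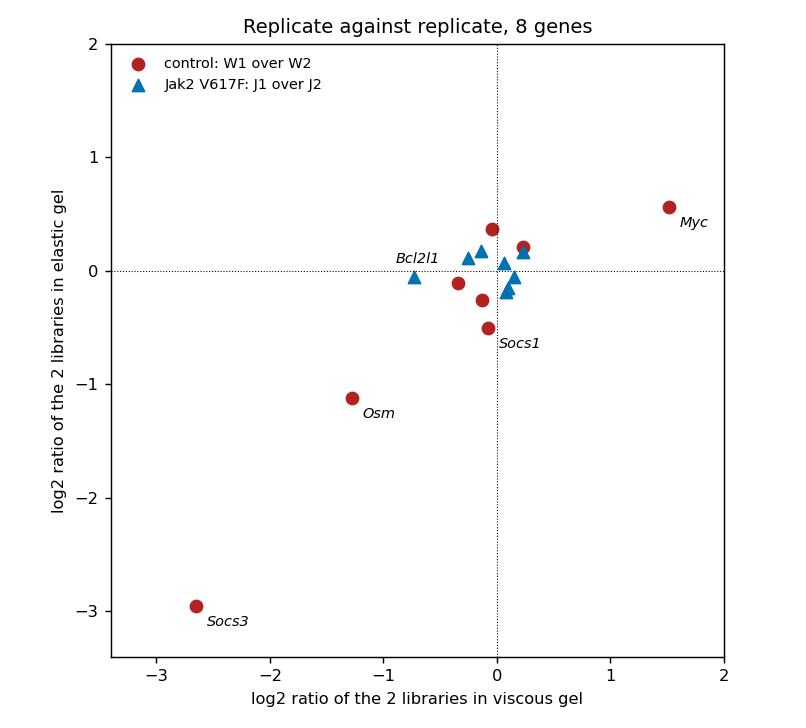
Log2 ratio of the 2 libraries of a group in viscous gel (x axis) and in elastic gel (y axis) for each of the 8 genes, as W1 over W2 in control cells (circles) and J1 over J2 in Jak2 V617F cells (triangles). Socs3 lies at −2.65 and −2.95 and Osm at −1.28 and −1.12, while the Jak2 V617F points lie between −0.25 and 0.23 on both axes apart from Bcl2l1, at −0.73 in viscous gel.

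Elastic and viscous gel were then compared. With all 8 libraries in the fit, edgeR, limma-voom and DESeq2 called no gene of the list between the gels, in either genotype or averaged over both. DESeq2 without W1 called Myc in control cells, where W2 was then the sole number, and Osm in Jak2 V617F cells. Osm was higher and Cish lower in elastic than in viscous gel within each title number, each 1 of 8 genes, where 10.6% of all IDs were higher and 10.8% lower. Socs2 was lower in elastic gel in control cells without overlap, also 1 of 8, where 13.8% of all IDs were. Fold changes below give elastic over viscous.

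Averaged over genotypes, edgeR called 0 of the 8 genes (0% of 14785 IDs), limma-voom 0 (0%) and DESeq2 0 (0.906%). At an unadjusted edgeR p under 0.05 there were also 0 of the 8, against 6.28% of all IDs. The largest log2 fold change was that of Osm, 0.41 (SE 0.34, 95% interval −0.41 to 1.22, adjusted p = 0.933). For Osm it was 0.076 without the W2 elastic library, 0.16 without the W1 viscous, 0.64 without the W1 elastic and 0.80 without the W2 viscous library, and Socs3 was larger than Osm without the last 2 (0.65 and 1.17). Each of these fits has 1 control number in 1 gel and both in the other, so the gap between W1 and W2 enters its estimate. Ratios within each title number, and a fit with the number as a block, are given below. Socs2 had −0.21 (SE 0.11, 95% interval −0.47 to 0.05, adjusted p = 0.867) and Cish −0.14 (SE 0.11, 95% interval −0.40 to 0.13, adjusted p = 0.929). The other 5 lay between −0.12 (Bcl2l1) and 0.24 (Socs3). The median of the 8 was −0.013, and that of all IDs was −0.0043.

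Within each title number, Osm was higher in elastic gel in all 4, at 1.28 times its viscous level in W1, 1.15 in W2, 1.65 in J1 and 1.33 in J2. It was the 1 gene of 8 with this pattern, against 10.6% of all IDs. Cish was lower in elastic gel in all 4, at 0.98, 0.83, 0.92 and 0.92 times its viscous level in the same order, again 1 of 8 against 10.8% of all IDs. Both shares were close to those of all IDs. No gene had all 4 elastic libraries above or below all 4 viscous libraries (0 of 8 each way, against 2.07% and 1.66% of all IDs).

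**Figure D4:**
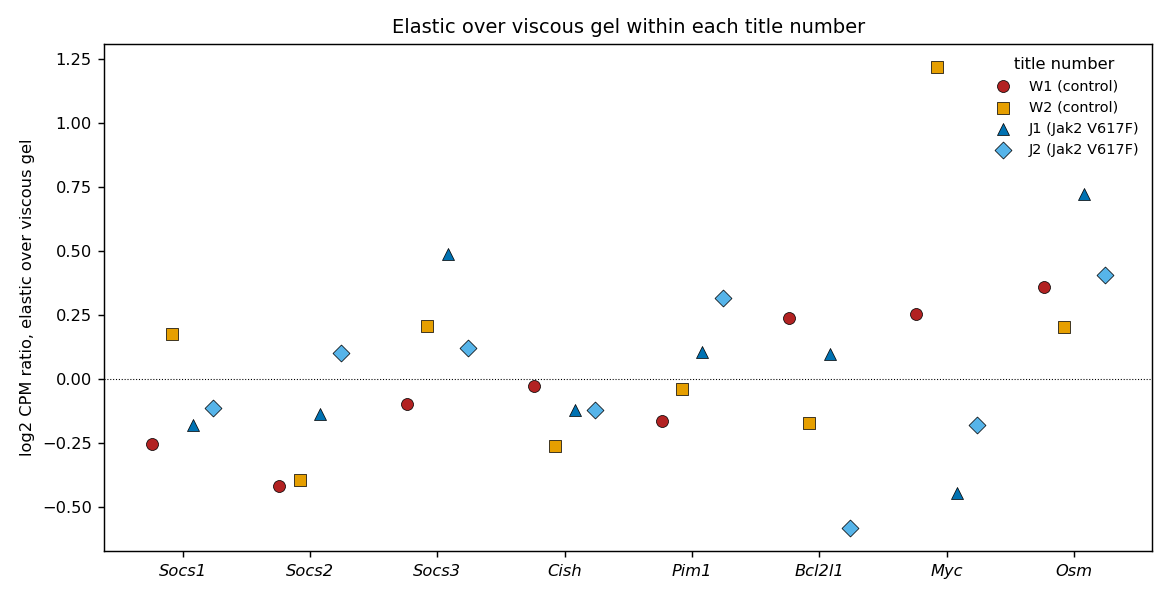
Log2 ratio of the level in elastic gel to that in viscous gel (y axis) for each gene (x axis), with 1 point for each title number. All 4 points lie above 0 for Osm and below 0 for Cish, and Myc ranges from −0.44 in J1 to 1.22 in W2.

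In control cells, Socs2 was 1.33-fold lower in elastic gel (log2 fold change −0.41, SE 0.15, 95% interval −0.77 to −0.04, edgeR adjusted p = 0.985). Its ratio was 0.75 in W1 and 0.76 in W2, so both numbers showed a similar difference. It was the 1 gene of 8 at an unadjusted p under 0.05, against 4.85% of all IDs, and the 1 gene without overlap between the gels (lower, against 13.8% of all IDs), and 0 of 8 were higher without overlap, against 13.1%. edgeR and limma-voom called 0 of the 8 (0% of all IDs), as did DESeq2 (0.237%). Myc had a log2 fold change of 0.57 (SE 0.46, adjusted p = 0.985), which was 0.0069 without the W2 viscous library and 1.53 without the W1 viscous library, and its elastic level was 2.33 times the viscous level in W2 and 1.19 times in W1. Without W1, with W2 as the sole control number, DESeq2 called Myc higher in elastic gel (log2 fold change 1.23, adjusted p = 0.0142), where it called 0.692% of all IDs, and edgeR did not (adjusted p = 0.457).

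In Jak2 V617F cells, both elastic libraries lay above both viscous libraries for Socs3, Pim1 and Osm (3 of 8, against 19.1% of all IDs) and below them for Cish and Myc (2 of 8, against 20.6%). Osm had a log2 fold change of 0.57 (SE 0.48, 95% interval −0.59 to 1.72), Socs3 0.30 (SE 1.04) and Pim1 0.21 (SE 0.16). Cish had −0.12 (SE 0.16) and Myc −0.31 (SE 0.46). All 8 had an edgeR adjusted p of 1.00, and 0 of 8 had an unadjusted p under 0.05, against 3.08% of all IDs. edgeR and limma-voom called 0 of the 8 (0% of all IDs), as did DESeq2 (0.237%). The wide intervals of Osm and Socs3 use a spread shared by all groups, which includes the gap between W1 and W2. On the 4 Jak2 V617F libraries alone, Osm had a log2 fold change of 0.56 (SE 0.12, edgeR adjusted p = 0.304). Without W1, DESeq2 called it (log2 fold change 0.57, adjusted p = 0.0136), where it called 1.26% of all IDs.

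Whether the gel effect differed between genotypes was tested as a difference of the effects, Jak2 V617F minus control. edgeR, limma-voom and DESeq2 called 0 of the 8 (0%, 0% and 0.0135% of all IDs), and 0 of 8 had an unadjusted edgeR p under 0.05, against 1.72%. The difference was 0.39 for Socs2 (SE 0.22, 95% interval −0.13 to 0.91), 0.31 for Pim1 (SE 0.22, 95% interval −0.22 to 0.84) and −0.88 for Myc (SE 0.64, 95% interval −2.42 to 0.67). For Cish it was 0.03 (SE 0.22, 95% interval −0.49 to 0.56) and for Socs1 −0.13 (SE 0.27, 95% interval −0.78 to 0.52). For Osm it was 0.31 (SE 0.68), for Socs3 0.13 (SE 1.46) and for Bcl2l1 −0.33 (SE 0.35), with intervals that also held 0.

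Likeness among the genes was described by Pearson's r of log2 CPM, with no test, since libraries of a number and of a group share their source. Over the 6 libraries without W1, r was 0.92 between Socs2 and Cish, 0.71 between Socs1 and Cish and 0.65 between Socs1 and Socs2. Socs1 and Myc had r = 0.74 there, above the last 2 of these pairs, and −0.14 over all 8 libraries. Over the same 6, Socs3 and Osm had r = 0.85. Socs3 had r = −0.55 with Socs1, −0.57 with Socs2 and −0.72 with Cish there. With the W1 libraries included, the same 3 values were 0.74, 0.21 and 0.72, so their sign rested on those libraries. Over all 8 libraries, r was 0.74 between Socs2 and Cish, 0.87 between Socs1 and Cish and 0.63 between Socs1 and Socs2. By likeness to Socs1 over all 8, Cish ranked 192 and Socs2 1410 of 8771 IDs. These 3 genes lay apart by genotype, which by itself raises r among them. Pim1 and Bcl2l1 had r = −0.74 over all 8. The other IDs most like each gene carry no symbols here and are not named.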

How the data were processed

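RNA-seq libraries of 8 samples in 4 groups of 2 were analysed. The authors deposited raw counts, as whole numbers for each Ensembl gene ID. The submitters' processing notes name Salmon, DESeq2 and build GRCm38. Versions, rounding, filters and strand are not given in the sources used here. Values in the 8 per-library files equalled those of the series table.

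Counts were tested with edgeR 4.0.16 in R 4.3.3 (filterByExpr by group, TMM, quasi-likelihood model with 4 group means over all 8 libraries, two-sided). The genotype comparison over both gels used counts summed per title number (15239 IDs kept). The call threshold was an adjusted p under 0.05 (Benjamini-Hochberg, over all IDs tested). SEs come from the test statistic, and the prior count of log2 CPM was 2. Both steps that test all genes were checked on simulated data. The simulation drew every library independently, without the deviation that libraries of a control number shared here, so it does not cover that setting. Alternatives were DESeq2 1.42.0, limma-voom (limma 3.58.1), DESeq2 size factors, other filters, libraries or title numbers left out, fits of only the groups compared, and the title number as a block. DESeq2 without W1 and DESeq2 averaged over 8 libraries were added after seeing the data.

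The 8 genes, their comparisons and the lists were chosen with earlier results of these data known. The rule for named genes took all 8 genes in every comparison, genes of pathway lists, and the IDs most like each gene. The reference table (RefSeq, GRCm38.p6, 49997 genes) matched 0 of the 17640 IDs, so 15 pathway and marker lists (168 symbols) were not tested, and promoter motifs were not searched. Positions come from that table by symbol. Figures were drawn with matplotlib 3.10.9.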

Additional observations from a re-analysis of the deposited data

Results flagged for a closer look

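Pim1 was the 1 gene of the list whose genotypes lay apart in opposite directions in the gels. In viscous gel the Jak2 V617F libraries (317.0 and 352.8 CPM) lay below the control libraries (353.5 and 386.9 CPM), and in elastic gel they (379.9 and 395.2 CPM) lay above them (315.6 and 376.7 CPM). In each gel the closest mutant and control libraries differed by less than counting error: their exact Poisson 95% intervals overlapped (J1 and W1 in viscous gel, J1 and W2 in elastic gel). Of all IDs, 2.25% showed such a reversal without overlap in either gel. In the test of the difference itself, the gel effect of the mutant minus the gel effect of the control was 0.31 on the log2 scale (SE 0.22, edgeR adjusted p = 1.00), so the difference did not pass the threshold.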

How the results depend on the processing

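Of 134 alternative counts of called genes of the list, 124 were 0. DESeq2 called 1 gene for genotype in elastic gel (Socs2) and 2 for genotype averaged over the 8 libraries (Socs2 and Cish). With libraries or a number left out, the counts were 0 to 2 for genotype in viscous gel, 0 to 3 in elastic gel, 0 to 5 for summed counts, and 0 to 1 for gel in control and in Jak2 V617F cells; the highest genotype counts came without W2, with W1 as the sole control number. Of 1072 alternative log2 fold changes, 69 reversed, all of them with libraries left out (1 library left in a group then takes its spread from the remaining groups). Their ranges for the summed genotype comparison were −0.15 to 2.68 for Socs3, −0.087 to 0.12 for Pim1, −0.17 to 0.26 for Bcl2l1 and −0.44 to 0.45 for Myc. For genotype in viscous gel they were −0.19 to 2.47 for Socs3, −0.21 to 0.52 for Bcl2l1, −0.20 to 1.32 for Myc and −0.16 to 1.13 for Osm, and in elastic gel −0.10 to 2.87 for Socs3 and −0.31 to 0.064 for Bcl2l1. For gel averaged over genotypes they were −0.22 to 0.036 for Socs1, −0.83 to 1.17 for Socs3, −0.0087 to 0.12 for Pim1, −0.28 to 0.087 for Bcl2l1 and −0.15 to 0.61 for Myc. For gel in control cells they were −0.29 to 0.22 for Socs1, −1.96 to 2.04 for Socs3, −0.31 to 0.033 for Cish, −0.23 to 0.029 for Pim1, −0.17 to 0.23 for Bcl2l1 and −0.42 to 1.04 for Osm, and in Jak2 V617F cells −0.12 to 0.10 for Socs2 and −0.61 to 0.13 for Bcl2l1. For the difference of gel effects they were −0.37 to 0.14 for Socs1, −1.74 to 2.26 for Socs3, −0.15 to 0.19 for Cish, −0.66 to 0.076 for Bcl2l1 and −0.47 to 0.98 for Osm. Without reversing, Osm averaged over genotypes ranged from 0.076 to 0.80 for gel, and for genotype Socs1 in elastic gel ranged from 0.17 to 0.69, Cish in viscous gel from 0.22 to 0.57 and Socs2 in viscous gel from 0.20 to 0.43. Another scaling, another filter and limma-voom reversed none of these values. Leaving out 1 control library sets 1 title number in 1 gel against both numbers in the other. The gap between W1 and W2 then enters the estimates of gel in control cells, averaged over genotypes and as a difference. Within a number, the elastic level of Socs3 was 0.94 times the viscous level in W1 and 1.15 times in W2.

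With the title number as a replicate block, edgeR called 0 of the 8 genes in each of the 4 gel comparisons, and so did limma-voom with a random block (correlation 0.38). The smallest edgeR adjusted p was 0.197, for Osm averaged over genotypes (log2 fold change 0.42). Deviations from the group mean correlated between libraries of the same number at 0.53 for control and −0.089 for mutant cells. Libraries of a control number thus shared part of their deviation, and those of a mutant number did not. The main gel tests did not use the number as a pairing, so their spread includes the gap between W1 and W2. With 2 libraries a group the intervals are wide, most of all for Socs3.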
